A study of Mus musculus with 48 samples.

Results

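The heat shock genes described here are 10 chaperone and stress-response genes of the mouse: Hspa1a, Hspa1b, Hspa8, Hsph1, Dnajb1, Hspb1, Hsp90aa1, Hspa4l, Hsf1 and Hspd1. A gene was measured by the probe sets, short probes grouped for 1 transcript, that carry its symbol and no other in the platform annotation, and was described by the probe set with the highest mean over all 48 arrays. By this rule 9 of the 10 genes were measured, among 18193 genes in all, through 25 of 45037 probe sets. Hsf1 had no probe set with its symbol alone and is not described further.

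Hippocampal (HPC) tissue came from adult male C57BL/6J mice in 8 groups of 6, and each mouse gave 1 array. Mice exposed to chronic intermittent ethanol (CIE) breathed air holding ethanol vapor at 10 to 13 mg/l for 16 h on each of 4 days, then had 7 days of abstinence, in 4 cycles. Each cycle opened with ethanol at 1.6 g/kg and pyrazole at 1 mmol/kg. Mice of the control group (Ctrl) were kept in air chambers and were given saline with the same pyrazole dose. The groups were CIE and Ctrl mice harvested 0 h, 8 h, 72 h or 7 d after the final chamber session. Pyrazole, an inhibitor of alcohol dehydrogenase, was thus shared by every group, and the ethanol was inhaled without choice. Each mouse had its own number in the labels, so the spread within a group is that between animals. The 5 markers of hippocampal neurons checked, Prox1, Neurod6, Wfs1, Rbfox3 and Slc17a7, had a mean log2 level between 10.27 and 10.73 in the mice of 0 h, and none was called at any harvest. At 7 d their mean lay between 10.39 and 10.72 in CIE mice and between 9.76 and 10.59 in Ctrl mice. In whole tissue, fewer cells of a type and less RNA per cell cannot be told apart.

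Molecular chaperones bind proteins that are unfolded or partly folded and keep them from aggregating. HSP70 proteins work in cycles of ATP hydrolysis, which J-domain proteins stimulate and HSP110 proteins reset by exchanging the nucleotide, while HSP90 finishes the folding of kinases and steroid receptors and small heat shock proteins hold unfolded chains. Heat shock factor 1 drives the inducible members of these families when unfolded proteins accumulate, by binding repeats of the block GAA in alternating orientation. In brain, constitutive HSC70 and HSP90 are abundant in neurons, and the inducible HSP70 genes are known for their response to heat, ischemia and other stress.

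The promoters of 5 members are shown first because they hold letters of such repeats. In Hspa1a, Hspa1b and Hspb1 these are only the form with 2 blocks. RefSeq windows of 300 bases, 250 before and 50 after the annotated start (build GRCm38.p6), were held for 7 of the 10 genes. Both strands were searched for the letters GAANNTTCNNGAA or TTCNNGAANNTTC, which hold 3 blocks, and for GAANNTTC or TTCNNGAA, which hold 2 blocks and lie inside the longer form. Of 32851 mouse windows, 0.603% held the longer form and 15.1% the shorter. A match is a run of letters only, and an absent match says only that these letters are not in the window. In the windows below, capitals mark the matches, and each is printed 5′ to 3′ on the gene's strand.
Hspa1a, chr17:34972107-34972406, minus strand: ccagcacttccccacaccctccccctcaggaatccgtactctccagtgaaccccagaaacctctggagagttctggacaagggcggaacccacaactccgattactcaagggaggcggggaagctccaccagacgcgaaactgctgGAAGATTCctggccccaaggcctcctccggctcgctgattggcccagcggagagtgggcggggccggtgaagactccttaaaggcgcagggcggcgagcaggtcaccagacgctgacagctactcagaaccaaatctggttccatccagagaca
Hspa1b, chr17:34959189-34959488, minus strand: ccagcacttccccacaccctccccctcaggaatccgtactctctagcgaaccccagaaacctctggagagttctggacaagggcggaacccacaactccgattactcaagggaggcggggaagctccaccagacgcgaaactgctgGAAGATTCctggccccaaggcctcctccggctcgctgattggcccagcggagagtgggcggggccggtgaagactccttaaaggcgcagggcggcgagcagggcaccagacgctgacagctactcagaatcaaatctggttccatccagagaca
Hspb1, chr5:135887669-135887968, plus strand: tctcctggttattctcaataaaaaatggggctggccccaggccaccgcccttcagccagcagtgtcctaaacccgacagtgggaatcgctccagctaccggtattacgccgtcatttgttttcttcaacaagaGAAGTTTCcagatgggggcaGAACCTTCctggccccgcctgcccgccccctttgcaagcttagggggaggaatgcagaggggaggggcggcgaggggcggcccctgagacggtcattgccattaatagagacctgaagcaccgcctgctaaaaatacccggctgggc
Hsph1, chr5:149636287-149636586, minus strand: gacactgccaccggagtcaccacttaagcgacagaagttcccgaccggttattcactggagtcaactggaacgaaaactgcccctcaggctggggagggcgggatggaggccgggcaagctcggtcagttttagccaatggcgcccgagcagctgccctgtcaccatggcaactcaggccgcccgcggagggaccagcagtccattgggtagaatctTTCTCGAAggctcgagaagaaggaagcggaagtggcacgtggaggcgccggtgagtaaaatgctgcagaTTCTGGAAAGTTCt
Hspd1, chr1:55087883-55088182, minus strand: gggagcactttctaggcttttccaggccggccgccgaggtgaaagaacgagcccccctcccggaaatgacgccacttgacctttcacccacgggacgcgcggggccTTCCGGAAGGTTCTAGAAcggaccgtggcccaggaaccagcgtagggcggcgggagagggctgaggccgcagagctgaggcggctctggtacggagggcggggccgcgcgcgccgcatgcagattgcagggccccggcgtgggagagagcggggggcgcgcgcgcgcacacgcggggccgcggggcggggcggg

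Hspa1a and Hspa1b lie next to each other, with Hspa1l as the following protein-coding gene, and their windows were identical at 296 of 300 positions. Each held 1 match of 2 blocks, which begins 104 bases before the start. Hspb1 held a pair of such matches, which begin 117 and 97 bases before its start. The longer form with 3 blocks was found in Hsph1, beginning 36 bases after the start shown and with a match of 2 blocks 33 bases before it, and in the second window of Hspd1, where overlapping matches begin 144 and 139 bases before the start. Hspd1 neighbours Hspe1, which encodes its co-chaperonin. No match was found in the windows of Dnajb1 and Hspa4l or in the first window of Hspd1.

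Of the 9 measured genes, 2 were called at 0 h, both higher in CIE mice, at a false discovery rate of 0.01 or less in limma. Of all 18193 genes, 1.64% were called at 0 h and 1.25% were called higher. The 2 genes were Hspa1a and Hspa1b, which encode the stress-inducible HSP70 protein. The other 7 measured members were not called, and all had differences below 0, beside 6306 of 18193 genes. These differences ran from −0.30 to −0.01 with a median of −0.08, where the median over all genes was 0.04. The median over the 9 measured members was −0.06.

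Hspa1a at 0 h lay between 9.08 and 9.76 in Ctrl mice on the log2 scale, with a median of 9.54. In CIE mice it lay between 9.78 and 10.49, with a median of 10.06. Every CIE mouse was above every Ctrl mouse, although the lowest CIE mouse was close to the highest Ctrl mouse. The difference was 0.58 on the log2 scale (SE 0.12, 95% interval 0.34 to 0.82), or 1.497-fold, with an adjusted p of 0.00244 in limma.

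Hspa1b at 0 h lay between 9.76 and 10.67 in Ctrl mice, with a median of 10.43, and between 10.73 and 11.50 in CIE mice, with a median of 11.09. The groups again did not overlap, which held for 1.28% of all genes with CIE mice higher. The difference was 0.71 (SE 0.14, 95% interval 0.42 to 1.00), or 1.638-fold, with an adjusted p of 0.00226. All 3 probe sets of Hspa1b were called higher, the other ones by 0.80 (SE 0.15, adjusted p = 0.00136) and 0.82 (SE 0.17, adjusted p = 0.00216). The coding sequences of Hspa1a and Hspa1b are nearly the same, so the 4 probe sets may read both transcripts and are not separate evidence. Over the 48 mice, deviations from the group means on these 4 probe sets had a Pearson r between 0.763 and 0.950, on shared arrays.

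Ctrl mouse 2 was the lowest mouse of 0 h on both genes and CIE mouse 57 the highest. Without Ctrl mouse 2 the differences were 0.50 and 0.59 (adjusted p = 0.0141 and 0.0135), and without CIE mouse 57 they were 0.50 and 0.63 (adjusted p = 0.0148 and 0.0132), so that neither gene passed the threshold. Arrays that share exactly equal values fell into 6 sets, and in the 5 sets that held both a CIE and a Ctrl mouse of 0 h the CIE mouse was higher on both genes. The differences within sets ran from 0.03 to 1.07 for Hspa1a and from 0.18 to 1.26 for Hspa1b. With the sets as a block, a fit that drops Ctrl mouse 2 because its array lies in no set, they were 0.50 (adjusted p = 0.0302) and 0.59 (adjusted p = 0.0286).

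**Figure D1:**
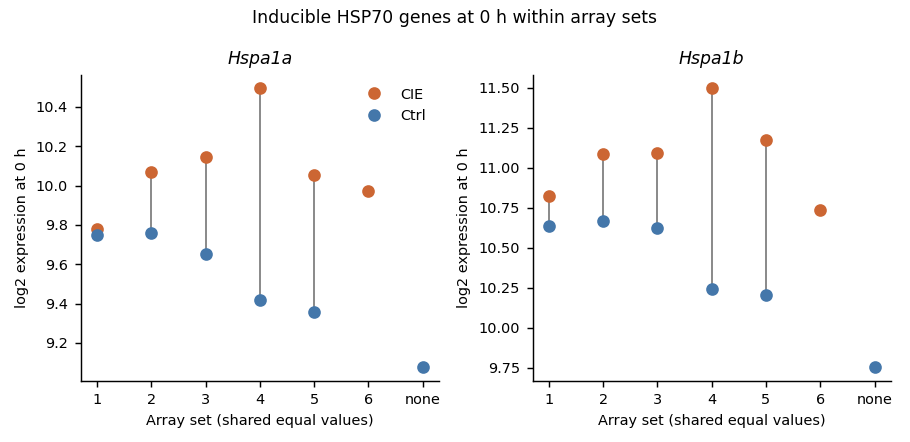
Log2 expression of Hspa1a (left) and Hspa1b (right) in each mouse of 0 h, by the set of arrays that share exactly equal values. Points are mice, lines join the CIE and Ctrl mouse of a set, and the CIE mouse is higher in 5 of 5 sets, with Ctrl mouse 2 outside all sets.

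At the later harvests the inducible HSP70 genes did not pass the test between CIE and Ctrl mice. At 8 h Hspa1a lay between 9.67 and 10.09 in Ctrl mice (median 9.85) and between 9.47 and 9.88 in CIE mice (median 9.80), with overlapping groups and a difference of −0.12 (95% interval −0.36 to 0.12). Hspa1b lay between 10.20 and 11.11 in Ctrl mice (median 10.87) and between 10.43 and 10.99 in CIE mice (median 10.78), with a difference of −0.04 (95% interval −0.33 to 0.25). At 72 h the differences were 0.03 for Hspa1a (95% interval −0.22 to 0.27) and 0.10 for Hspa1b (95% interval −0.19 to 0.39). At 7 d they were 0.18 (95% interval −0.06 to 0.42) and 0.21 (95% interval −0.08 to 0.50), with adjusted p of 0.438 and 0.444 and overlapping groups.

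Whether the CIE effect itself changed between harvests was tested as an interaction. From 0 h to 8 h the effect fell by 0.70 for Hspa1a (SE 0.17, adjusted p = 0.0480) and by 0.75 for Hspa1b (SE 0.20, adjusted p = 0.0829), neither of which passed. None of the 9 measured members was called, beside 0.0330% of all genes, and 3 of 9 had an unadjusted p below 0.05, beside 12.23% of all genes. From 0 h to 72 h the effect differed by −0.56 (SE 0.17, adjusted p = 0.145) and −0.61 (SE 0.20, adjusted p = 0.196), and from 0 h to 7 d by −0.41 (adjusted p = 0.421) and −0.50 (adjusted p = 0.403). Of the 9 measured members 0 were called for either, beside 0.0275% and 0.0660% of all genes. At an unadjusted p below 0.05 there were 3 each time, beside 11.79% and 9.965% of all genes. Over the other 3 couples of harvests 0 members were called, beside 0.0110% (72 h and 8 h), 0.0715% (7 d and 8 h) and 0% (7 d and 72 h) of all genes. In the same order 0, 1 and 0 members had an unadjusted p below 0.05, beside 9.179%, 12.37% and 10.09% of all genes.

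Levels within a treatment give the course behind these differences. Within CIE mice, both genes were lower at 72 h than at 0 h, Hspa1a by −0.53 (SE 0.12, adjusted p = 0.00675) and Hspa1b by −0.70 (SE 0.14, adjusted p = 0.00317). They were the only members called in that comparison, where 1.38% of all genes were called and 0.649% called lower. Within Ctrl mice the levels at 8 h lay above those at 0 h by 0.37 for Hspa1a (SE 0.12, adjusted p = 0.0599) and 0.45 for Hspa1b (SE 0.14, adjusted p = 0.0618), without passing the test. Of the other contrasts with 0 h, 0 members were called in Ctrl mice at 72 h, in Ctrl mice at 7 d or in CIE mice at 7 d, beside 0.445%, 0.264% and 1.16% of all genes. In the same order 1, 0 and 2 members had an unadjusted p below 0.05, beside 17.37%, 13.53% and 13.12% of all genes. The nearest was Hspa1b in CIE mice at 7 d, at −0.56 (adjusted p = 0.0254). These comparisons share the 0 h mice with the contrast of CIE and Ctrl mice at 0 h.

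The order of the 8 group means was alike for both genes at the top, with CIE mice of 0 h first, Ctrl mice of 8 h second followed by CIE mice of 8 h. For Hspa1a the means ran from 10.09 ± 0.24 (SD, n = 6) in CIE mice of 0 h to 9.50 ± 0.32 (SD, n = 6) in Ctrl mice of 7 d, and every neighbour in this order lay within the larger SD of the 2 groups. For Hspa1b they ran from 11.07 ± 0.27 (SD, n = 6) to 10.27 ± 0.26 (SD, n = 6) in Ctrl mice of 72 h. The only neighbours of Hspa1b farther apart than the larger SD were CIE mice of 8 h and CIE mice of 7 d, at 0.26.

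**Figure D2:**
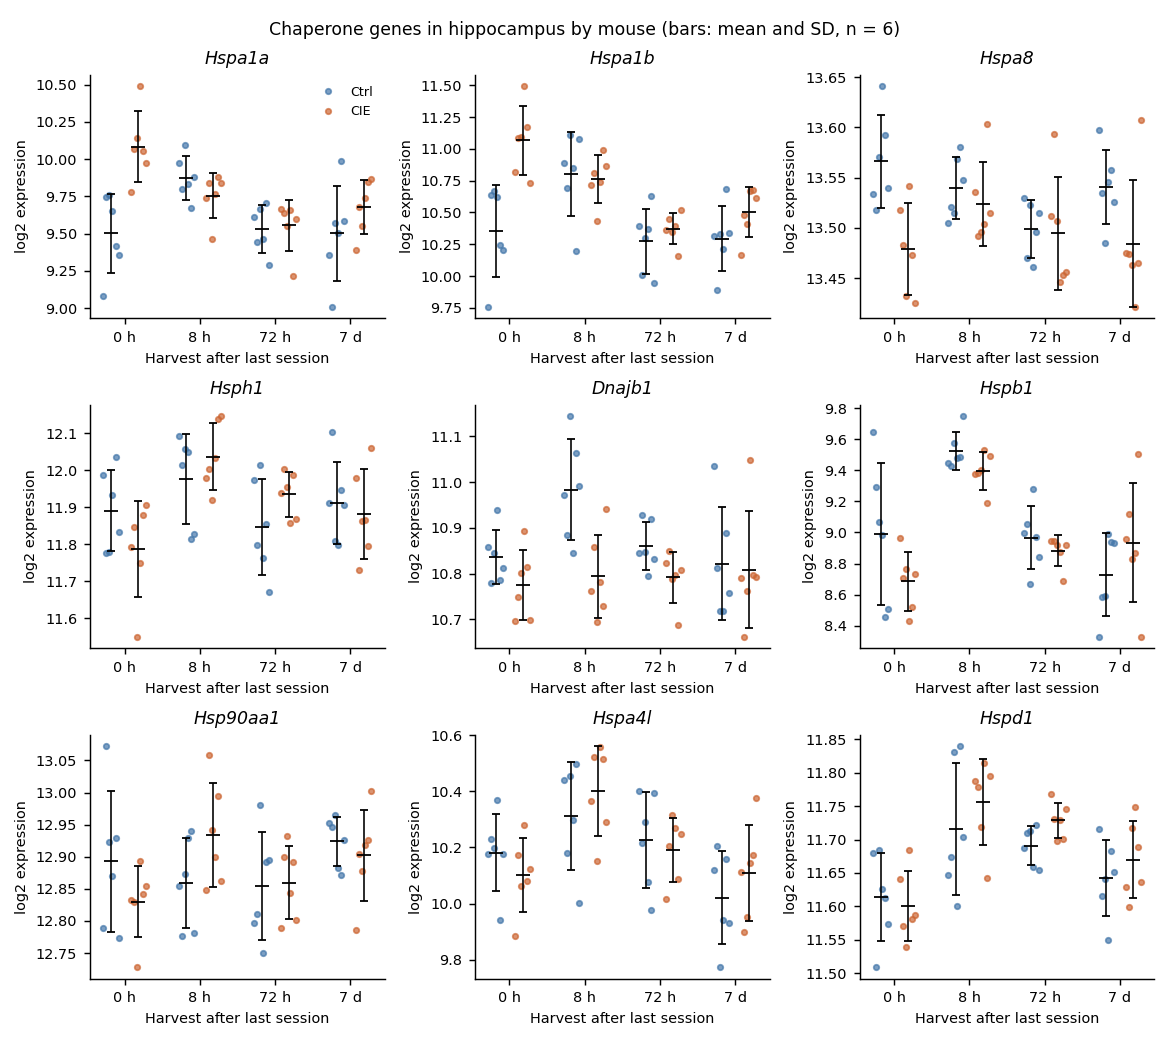
Log2 expression (vertical axes) of the 9 measured genes in each mouse at 0 h, 8 h, 72 h and 7 d after the last session (horizontal axes), with Ctrl in blue and CIE in orange, and black bars for the mean and SD of 6 mice. Hspa1a and Hspa1b separate CIE from Ctrl mice at 0 h, and Hspb1 is highest at 8 h in both treatments.

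Hspa8 encodes HSC70, the constitutive HSP70 protein, which also uncoats clathrin vesicles. At 0 h its level lay between 13.52 and 13.64 in Ctrl mice (median 13.56) and between 13.43 and 13.54 in CIE mice (median 13.48). The groups overlapped by a few mice, and the difference of −0.09 (SE 0.03, 95% interval −0.15 to −0.02) was not called (adjusted p = 0.110). Its differences at 8 h, 72 h and 7 d were −0.02, −0.0043 and −0.06, with 95% intervals that included 0 each time. The probe set used has a name ending in _x_at, a type whose probes can also match related genes.

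A further probe set of Hspa8, 1431182_at, was the only member probe set called lower at 0 h. On it the Ctrl mice lay between 8.06 and 8.45 and the CIE mice between 7.51 and 7.96. The difference was −0.61 (SE 0.14, adjusted p = 0.00721 in limma). Its difference at 8 h was −0.53 (adjusted p = 0.0195), which did not pass. Of the 25 member probe sets, 4 were called higher and 1 lower at 0 h, where 0.917% and 1.00% of all probe sets were called. With the mean of all 4 probe sets in place of the brightest, Hspa8 was lower at 0 h by −0.24 (SE 0.04, adjusted p = 0.000888), so its call rests on which probe set is read.

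**Figure D3:**
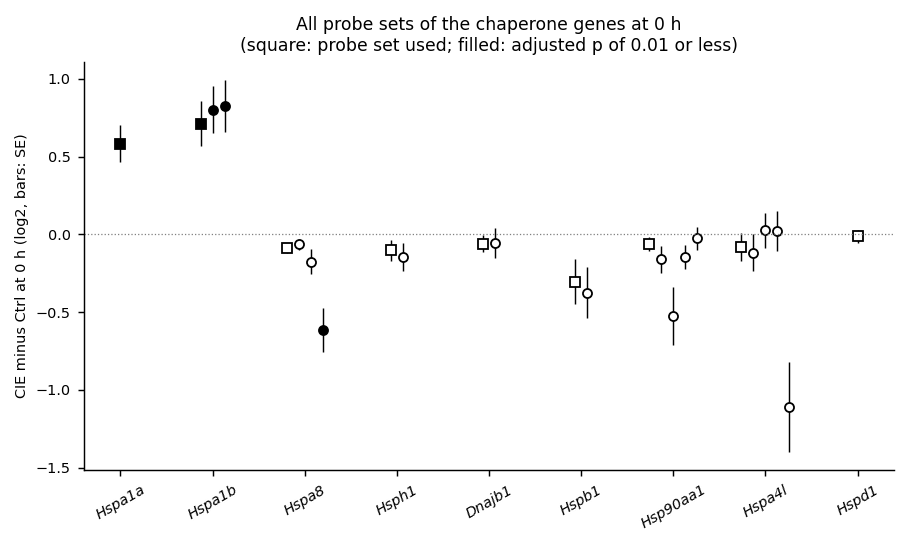
CIE minus Ctrl at 0 h on the log2 scale (vertical axis) for each of the 25 probe sets of the 9 measured genes (horizontal axis), with bars for the SE. Squares mark the probe set used and filled symbols those called: the 4 of Hspa1a and Hspa1b lie above 0, and 1 of Hspa8 lies below.

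Hsph1 and Hspa4l encode HSP110 proteins, which exchange the nucleotide of HSP70. Hsph1 at 0 h lay between 11.78 and 12.04 in Ctrl mice (median 11.88) and between 11.55 and 11.91 in CIE mice (median 11.82). The groups overlapped, and the difference was −0.10 (95% interval −0.24 to 0.03, adjusted p = 0.407). Hspa4l lay between 9.94 and 10.37 in Ctrl mice (median 10.19) and between 9.88 and 10.28 in CIE mice (median 10.10), again overlapping, with a difference of −0.08 (95% interval −0.26 to 0.10). On the probe sets used, the differences of both genes at 8 h, 72 h and 7 d lay between −0.04 and 0.09. Their 95% intervals all included 0. Another probe set of Hspa4l, 1458385_at, had a difference of −1.11 at 0 h (SE 0.29, adjusted p = 0.0152), which did not pass. On it Ctrl mice lay between 9.12 and 10.82 and CIE mice between 7.96 and 9.19. The remaining 4 probe sets of the gene had differences from −0.12 to 0.03 at 0 h. At 7 d 1458385_at had a difference of −0.85 (95% interval −1.44 to −0.27, adjusted p = 0.0684). At 8 h the probe set 1418253_a_at of Hspa4l had 0.28 (95% interval 0.02 to 0.54, adjusted p = 0.237). Neither passed, and the other later 95% intervals of the gene's probe sets included 0.

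Dnajb1 encodes an HSP40 protein, the J-domain partner that stimulates the ATPase of HSP70. Its level at 8 h lay between 10.84 and 11.14 in Ctrl mice (median 10.98) and between 10.70 and 10.94 in CIE mice (median 10.77). Most CIE mice were below the Ctrl mice, with some overlap, and the CIE value was the higher in 3 of 36 CIE and Ctrl couples of mice. The difference of −0.19 (SE 0.06, 95% interval −0.30 to −0.08) had an adjusted p of 0.0329 and was not called. At 0 h it was −0.06, at 72 h −0.07 and at 7 d −0.01, with 95% intervals that included 0. Ctrl mice of 8 h had the highest of the 8 group means, 10.98 ± 0.11 (SD, n = 6), and the 4 CIE means lay between 10.78 and 10.81. On the other probe set of the gene, 1416756_at, the difference at 8 h was −0.07 (95% interval −0.27 to 0.12, adjusted p = 0.763).

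Hspb1 encodes HSP27, a small heat shock protein found in astrocytes, vessel walls and stressed neurons. At 0 h it lay between 8.45 and 9.65 in Ctrl mice (median 9.02) and between 8.43 and 8.97 in CIE mice (median 8.72). The groups overlapped widely, and the difference of −0.30 (SE 0.15, 95% interval −0.60 to −0.01) was not called (adjusted p = 0.237). Hspb1 had its highest group means at 8 h, and the contrast of 8 h with 0 h was called only within CIE mice.

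At 8 h Hspb1 lay between 9.43 and 9.75 in Ctrl mice (median 9.48) and between 9.19 and 9.53 in CIE mice (median 9.39). Every CIE mouse of 8 h was above every CIE mouse of 0 h, and the share of all genes that separate this way is not given here. Within CIE mice, 8 h exceeded 0 h by 0.71 (SE 0.15, adjusted p = 0.00153), the only member called in that comparison, where 2.95% of all genes were called and 1.68% called higher. Within Ctrl mice the increase was 0.54 (SE 0.15, adjusted p = 0.0242), which did not pass, and 0 of the 9 measured members were called in limma, beside 0.456% of all genes. At an unadjusted p below 0.05 there were 5 of 9, beside 17.44% of all genes. The increase in CIE mice less that in Ctrl mice was 0.17 (95% interval −0.24 to 0.59, adjusted p = 0.810). Hsph1, Hspa4l and Hspd1 were also nearer to the threshold within CIE mice, with 8 h minus 0 h at 0.25 (adjusted p = 0.0126), 0.30 (adjusted p = 0.0308) and 0.16 (adjusted p = 0.0104). Hspa1a and Hspa1b went the other way in CIE mice, at −0.33 (adjusted p = 0.0811) and −0.31 (adjusted p = 0.200). In this comparison 7 of the 9 measured members had an unadjusted p below 0.05, beside 22.15% of all genes. The time of day of each harvest was not used here.

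Hsp90aa1 encodes the inducible form of cytosolic HSP90. At 0 h it lay between 12.77 and 13.07 in Ctrl mice (median 12.90) and between 12.73 and 12.89 in CIE mice (median 12.84). The groups overlapped, and the difference was −0.06 (95% interval −0.16 to 0.03, adjusted p = 0.491). At 8 h the difference was 0.08 (95% interval −0.02 to 0.17), and at 72 h and 7 d it was 0.01 and −0.02. Another probe set of the gene, 1437497_a_at, had lower means in CIE mice at 0 h, 8 h, 72 h and 7 d. Its differences in that order were −0.53, −0.32, −0.48 and −0.48. None was called (adjusted p from 0.0870 to 0.381 in limma), and its 95% interval included 0 only at 8 h. The 95% intervals of the remaining probe sets of the gene included 0 throughout.

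Hspd1 encodes HSP60, the chaperonin of the mitochondrial matrix, and so is not a cytosolic chaperone. At 0 h it lay between 11.51 and 11.68 in Ctrl mice (median 11.62) and between 11.54 and 11.68 in CIE mice (median 11.58). The groups covered nearly the same range, and the difference of −0.01 had a 95% interval from −0.09 to 0.07. At the later harvests the differences were 0.04, 0.04 and 0.03, and their 95% intervals ran from −0.05 or −0.04 up to 0.11 or 0.12.

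Over the 3 later harvests 0 of the 9 measured members were called in limma between CIE and Ctrl mice. At an unadjusted p below 0.05 there was 1 at 8 h, Dnajb1, and 0 at 72 h and 7 d, beside 18.42%, 7.574% and 18.65% of all genes. Of all genes 2.29% were called at 8 h, 0.00550% at 72 h and 1.03% at 7 d. In the F test over the 4 harvests, Hspa1a and Hspa1b were called (adjusted p = 0.00457 for each), with Dnajb1 next (adjusted p = 0.0682), where 6.23% of all genes were called. With the array sets as a block 0 members were called in the F test, and with array weights 1. The share of all genes called in these 2 fits is not given here.

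**Figure D4:**
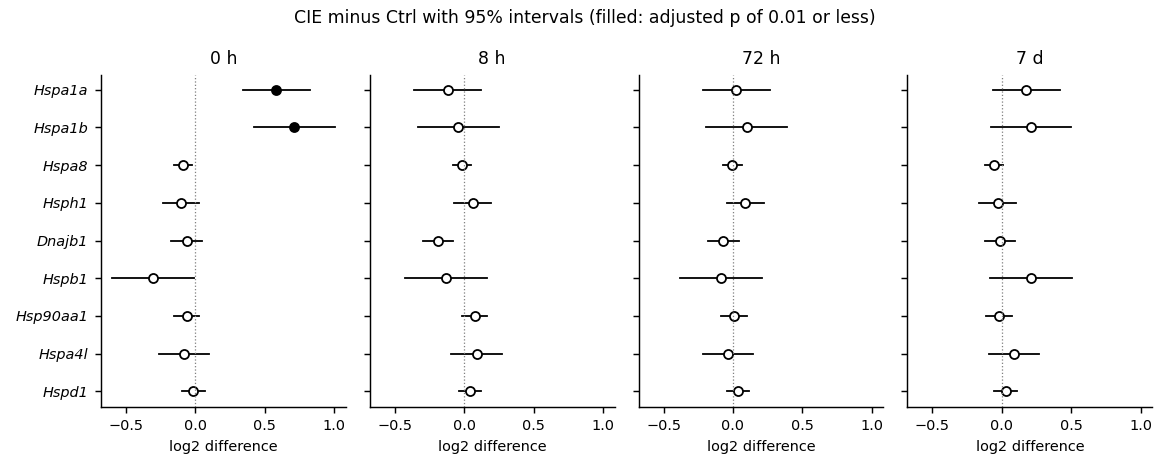
CIE minus Ctrl on the log2 scale (horizontal axes) with 95% intervals for the 9 measured genes (vertical axis) at each harvest, with filled points for those called. Hspa1a and Hspa1b are called at 0 h, at 0.58 and 0.71, and every other point is open.

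Among the members, deviations from the group means went together most for Hspa1a and Hspa1b, with Pearson r of 0.875 and Spearman rho of 0.858 over the 48 arrays. Dnajb1 and Hspd1 followed with r of 0.670 and rho of 0.647, and no other couple exceeded an r of 0.382. Outside the members, the genes most like Hspa1a by this measure were Fam189a1 (r = 0.815) and Extl1 (r = 0.808), and those most like Hspa1b were Wscd2 (r = 0.814) and Stum (r = 0.785). At 0 h these 4 genes had differences from 0.16 to 0.35, none of which was called. The points share arrays, tissue pieces and normalization, so the correlations are descriptions.

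The wider chaperone network was read from 80 further genes in 8 classes, of which 76 were measured. At 0 h 4 of the 76 were called, all lower in CIE mice, where 0.390% of all genes were called lower. Their classes were HSP90 co-chaperones and the cytosolic chaperonin TRiC with its partner prefoldin. At 8 h 1 was called, higher, where 1.60% of all genes were called higher. At 72 h 0 were called, with 5 of 76 at an unadjusted p below 0.05, beside 7.574% of all genes, and at 7 d 1, lower, where 0.176% of all genes were called lower. The median difference of the 76 genes was −0.01 at 0 h and −0.01 at 8 h, beside 0.04 and 0.01 for all genes.

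Of 11 measured HSP90 genes and co-chaperones, 2 were called lower at 0 h. Cacybp, the calcyclin-binding protein, lay between 10.82 and 11.04 in Ctrl mice (median 10.92) and between 10.62 and 10.73 in CIE mice (median 10.67), with no overlap. Its difference was −0.25 (SE 0.05, adjusted p = 0.000695). Chordc1, an HSP90 co-chaperone, lay between 10.77 and 11.02 in Ctrl mice (median 10.89) and between 10.51 and 10.75 in CIE mice (median 10.66), also without overlap, with a difference of −0.23 (SE 0.05, adjusted p = 0.00340).

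Of 14 measured genes of TRiC and prefoldin, 2 were called lower at 0 h. Differences were below 0 for 12 of the 14, beside 6306 of 18193 genes, and their median was −0.07. Pfdn1, a subunit of the prefoldin complex that hands actin and tubulin chains to TRiC, lay between 10.09 and 10.43 in Ctrl mice (median 10.18) and between 9.81 and 9.94 in CIE mice (median 9.88). The groups did not overlap, and the difference was −0.34 (SE 0.07, adjusted p = 0.00299). Cct7, a TRiC subunit, lay between 11.84 and 11.91 in Ctrl mice (median 11.89) and between 11.69 and 11.76 in CIE mice (median 11.73), without overlap, at −0.15 (SE 0.03, adjusted p = 0.00394). Pfdn1 was also called lower at 7 d, at −0.31 (SE 0.07, adjusted p = 0.00879), with Ctrl mice between 9.94 and 10.35 and CIE mice between 9.70 and 10.03, which overlapped. Not overlapping with CIE mice lower at 0 h held for 0.346% of all genes. With the array sets as a block, Cacybp was the only one of the 4 genes called at 0 h. Without Ctrl mouse 2 or CIE mouse 57 the 2 called were Chordc1 and Cacybp, and without Ctrl mouse 56 or CIE mouse 43 they were Cacybp and Pfdn1. The call of Pfdn1 at 7 d held in 11 of 20 alternatives.

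Of the 9 measured genes for nucleotide exchange and regulation of HSP70, 1 was called, at 8 h. Bag4, a BAG-domain protein that binds the ATPase domain of HSP70, lay between 10.26 and 10.64 in Ctrl mice of 8 h (median 10.46) and between 10.74 and 11.01 in CIE mice (median 10.79). Every CIE mouse was above every Ctrl mouse, as in 1.87% of all genes at 8 h, and the difference was 0.38 (SE 0.09, adjusted p = 0.00546). With the mean of all its probe sets the difference was −0.02 (adjusted p = 0.909), so the call rests on 1 probe set. The call was also lost with the array sets as a block (adjusted p = 0.0134) and without any 1 of 7 mice, Ctrl mouse 32, 66 or 79 or CIE mouse 21, 23, 41 or 69, where the difference lay between 0.34 and 0.39. At 0 h, 7 of the 9 differences of this class were above 0 and 2 below, with a median of 0.10. Of all 18193 genes 11887 were above 0 and 6306 below. Bag2 was higher in CIE mice of 0 h by 0.31 (adjusted p = 0.0118) and Bag3 by 0.36 (adjusted p = 0.0246), and neither was called. At 7 d they differed by 0.23 (adjusted p = 0.0685) and 0.36 (adjusted p = 0.0263), also without passing.

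The other 5 classes had 0 called genes at every harvest, and the gene with the smallest p at 0 h or 8 h is given for each. Among 12 J-domain genes it was Dnajb5, at −0.27 at 0 h (adjusted p = 0.0410), and among 7 small heat shock proteins it was Cryab, the lens and glial protein alpha-B-crystallin, at −0.35 at 0 h (adjusted p = 0.0681). Among 8 mitochondrial chaperones it was Hspa9, the HSP70 of the matrix, at 0.17 at 8 h (adjusted p = 0.0647). Among 9 heat shock factors and regulators it was Hsf2, at 0.54 at 8 h (adjusted p = 0.0686). Among 6 other HSP70 and HSP110 genes it was Hspa1l, the neighbour of Hspa1a, at 0.19 at 0 h (adjusted p = 0.196). The mean log2 level of Hspa1l over all arrays was low, at 4.32, below every array median.

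**Figure D5:**
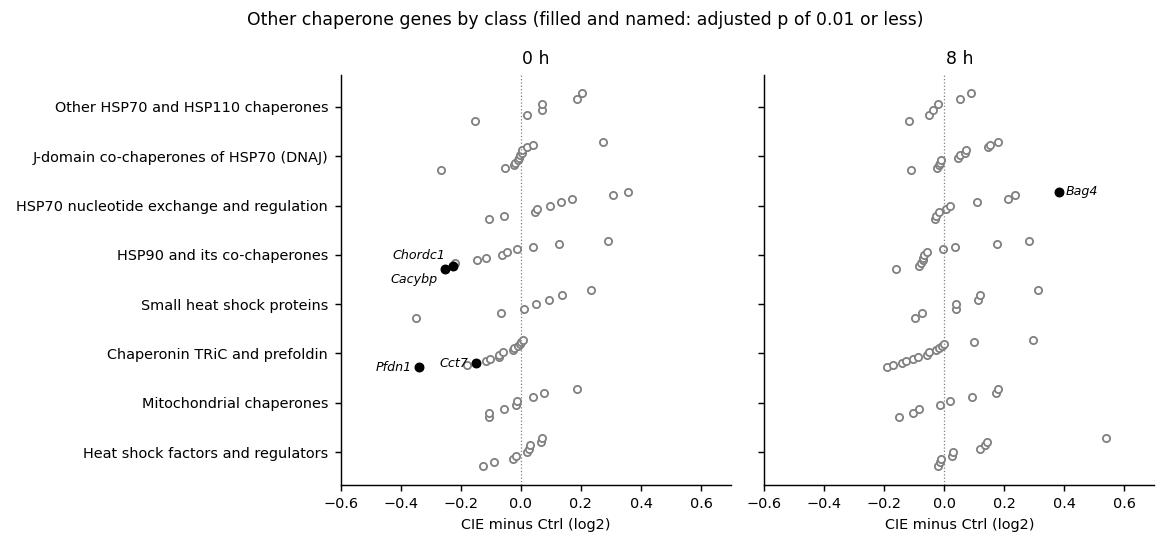
CIE minus Ctrl on the log2 scale (horizontal axes) at 0 h and 8 h for the 76 measured genes of 8 further chaperone classes (vertical axis), 1 point per gene. The named filled points are those called: 4 lie below 0 at 0 h and Bag4 lies above 0 at 8 h.

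Markers of other cell types were read beside the members, first at 0 h. Of the lists for astrocytes, oligodendrocytes, microglia, vessel wall, choroid plexus, striatal neurons and blood, only choroid plexus held a called gene at 0 h. It was 1 of 5, Otx2, lower in CIE mice (−1.21, adjusted p = 0.00738), where 0.390% of all genes were called lower. Otx2 had a low mean log2 level of 3.86 over all arrays. In the same list Kl had a difference of 0.665 (adjusted p = 0.0561), and Ttr, Folr1 and Kcnj13 had −0.328, −0.126 and −0.027. The mean level of that list lay between 6.50 and 6.94 in Ctrl mice and between 6.06 and 6.93 in CIE mice. For endothelium and vessel wall, which also hold Hspb1, the mean level lay between 7.75 and 8.72 in Ctrl mice and between 8.11 and 8.69 in CIE mice. At 7 d the list means differed (CIE minus Ctrl) by −0.894 for striatal neurons, 0.753 for choroid plexus and 0.368 for vessel wall. For astrocytes, microglia, oligodendrocytes and blood these were 0.292, 0.236, −0.148 and 0.109. At 7 d 1 of 3 striatal markers was called lower, beside 0.176% of all genes. Called higher were 1 choroid plexus and 1 microglia marker, beside 155 of 18193 genes. At 8 h the largest was 0.363 for oligodendrocytes, with 0 called. The part of these markers in the chaperones' differences was not tested.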

How the data were processed

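Expression in 48 hippocampi was measured on Affymetrix mouse arrays. The deposited log2 values were made by the authors with RMA: background correction and quantile normalization ran first within each hybridization batch, quantile normalization was repeated over all arrays, and ComBat removed the batch. The sources used here give no version of these tools. No label gave the batch, and precision is limited by how many arrays there were.

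Of 45037 probe sets, 34945 had 1 symbol in the platform annotation, 932 several and 9160 none, with 0 symbols updated. Array medians were 6.601 to 6.627 and correlations between arrays 0.974 to 0.998. All 48 arrays entered 1 limma model (3.58.1, R 4.3.3) with 8 group means. P-values were two-sided and adjusted by Benjamini-Hochberg over all probe sets, and a call needed 0.01 or less. The code was run on simulated arrays with independent noise and 200 changed probe sets. These held no array sets and no correlation between genes, so the run checks the code and not the calls given here. Arrays sharing at least 5 values equal within 1e-08 were joined into sets: 47 arrays formed 6 sets.

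The members and lists were chosen with earlier results of these data known. Named beside the members are all other chaperone genes called, otherwise the smallest p of a class at 0 h or 8 h, and the genes most like a called member. The probe sets 1458385_at, 1418253_a_at, 1437497_a_at and 1416756_at, and the genes Bag2 and Bag3, were named after their values were seen. Alternatives were the arrays of 1 harvest only, variance trend, array weights, a minimum mean of 6, repeated normalization, sets as a block, other probe sets and leaving out each mouse.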

Additional observations from a re-analysis of the deposited data

Results flagged for a closer look

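Among the 72 combinations of a measured gene and a group of 6 mice, 6 held a mouse whose gap to its nearest neighbour took more of the group's range than Dixon's critical value for 6 mice, which chance gives in about 1 in 20 groups. In CIE mice of 72 h, mouse 61 was the lowest on 3 genes: Hspa1a at 9.22 against 9.55 for the next mouse (0.740 of the range), Hspb1 at 8.69 against 8.88 (0.724) and Dnajb1 at 10.69 against 10.79 (0.629). In CIE mice of 8 h, mouse 23 was the lowest on Hspa1a at 9.47 against 9.74 (0.658). In CIE mice of 7 d, mouse 59 was the highest on Hspa8 at 13.61 against 13.47 (0.715), and mouse 37 the highest on Dnajb1 at 11.05 against 10.80 (0.649).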

How the results depend on the processing

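No paired analysis was possible because each mouse number occurs once in the labels, so no replicate number is shared between groups. This concerns the numbers only, and the array sets, which are not in the labels, were fitted as a block.

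Hspa1a and Hspa1b kept their direction at 0 h under every alternative, but 0 of the 9 measured members were called at 0 h with the 12 arrays of the harvest alone (adjusted p = 0.0525 and 0.0543), with array weights (differences 0.53 and 0.64, adjusted p = 0.0105 and 0.0158) and with the array sets as a block (0.50 and 0.59). Leaving out 1 mouse gave 0 to 2 called members, with differences of 0.50 to 0.64 for Hspa1a and 0.59 to 0.78 for Hspa1b, and 0 called without Ctrl mouse 2 or CIE mouse 57. The F test called 1 member with array weights and 0 with the block. The share of all genes called under each alternative is not given here. The counts above and below are therefore not read as results about the chaperones.

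Of the other chaperone genes, the 4 called at 0 h became 0 with the 12 arrays alone, 1 (Cacybp) with array weights, 1 (Cacybp) with the block, and 2 to 6 without 1 mouse. It was 2 without Ctrl mouse 2 or CIE mouse 57 (Chordc1 and Cacybp) and 2 without Ctrl mouse 56 or CIE mouse 43 (Cacybp and Pfdn1). Cacybp was called in 19 of 20 alternatives. The 1 called at 8 h became 2 with the variance trend (Bag4 and Cct5), 8 with array weights, 2 without dim probe sets (Bag4 and Pfdn2), 0 with the block, 0 with the mean of all probe sets and 0 to 1 without 1 mouse (0 without Ctrl mice 32 or 79 or CIE mice 21, 23, 41 or 69, and Pfdn2 in place of Bag4 without Ctrl mouse 66). The 1 called at 7 d became 0 with the 12 arrays alone, 0 with the block and 0 to 3 without 1 mouse (0 without Ctrl mice 18, 22 or 54 or CIE mice 7, 9, 37 or 45, and 3 without Ctrl mouse 70).

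The call of Bag4 at 8 h held in 11 of 20 alternatives and its sign turned with the mean of all probe sets (−0.02). Otherwise signs turned only in differences that were not called. With the mean of all probe sets these were Hspa1b at 8 h (0.0556), Hsp90aa1 at 8 h (−0.0598) and 72 h (−0.13), Hspa8 at 72 h (0.0132), Hsph1 at 7 d (0.0075) and Hspa4l at 7 d (−0.10). Without _x_at or _s_at probe sets they were Hspa8 at 8 h (0.0277), 72 h (0.0340) and 7 d (0.0172). With array weights they were Hspa8 at 72 h (0.0118) and Dnajb1 at 7 d (0.0092), with repeated normalization Hsp90aa1 at 72 h (−0.0004), and with the block Hspd1 at 0 h (0.0005). Without 1 mouse the ranges that crossed 0 were −0.0346 to 0.0006 for Hspd1 at 0 h, −0.163 to 0.0231 for Hspa1b at 8 h, −0.0240 to 0.0053 for Hspa8, −0.0154 to 0.0305 for Hsp90aa1 and −0.0227 to 0.0925 for Hspa1a at 72 h, and −0.0611 to 0.0295 for Dnajb1, −0.0654 to 0.0084 for Hsph1 and −0.0415 to 0.0019 for Hsp90aa1 at 7 d. The cause of these changes was not tested.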
